A study of Mus musculus with 24 samples.

Results

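The apical polarity and outer limiting membrane genes described here were 10 genes chosen by name: *Crb1*, *Crb2*, *Crb3*, *Mpp5*, *Patj*, *Pard3*, *Pard6b*, *Prkci*, *Tjp1* and *Ocln*. Each symbol matched 1 Ensembl mouse gene identifier among the 46603 annotated genes in the count tables, and 9 of the 10 had enough reads to be tested, with *Crb3* falling short. They were measured in 24 mouse retinal organoids (MROs), retinal tissue grown in culture from pluripotent stem cells, with 6 MROs each on day (D) 20, 22, 25 and 30 of differentiation. All MROs came from wildtype mouse embryonic stem cells of the line E14Tg2a, were cut into pieces by hand during culture (the trisection protocol), had received the synthetic retinoid EC23 before D20, and were, by the submitters' labels for all 24, a control given only water as solvent. RNA of each whole MRO was depleted of ribosomal RNA and sequenced from strand-specific libraries. The 24 MROs came from 1 independent experiment, so the spread between them is a spread between organoids of a single differentiation, and all p-values rest on it.

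Epithelial cells keep an apical and a basal side apart through protein complexes at the cell cortex. The Crumbs complex, in which a transmembrane Crumbs protein binds the scaffold PALS1 (encoded by *Mpp5*) and through it PATJ, and the Par complex of PAR3, PAR6 and atypical protein kinase C mark the apical side. In the retina both lie close to the outer limiting membrane, the row of adherens junctions between photoreceptors and Müller glia, and mutations of human *CRB1* cause inherited retinal dystrophies.

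Over the 10 genes no common direction was found. From D20 to D30, *Crb1*, *Patj*, *Tjp1* and *Ocln* rose, *Pard3* and *Prkci* fell, and *Crb2*, *Mpp5* and *Pard6b* did not pass the test. The largest fitted changes were those of *Ocln*, which encodes the tight junction protein occludin and rose 13.1-fold from a very low level, and of *Patj*, which rose 5.06-fold. The outcome for each gene and step is given below as CPM, read counts scaled to the size of each library with edgeR's TMM factors, and as log2 fold changes from edgeR's quasi-likelihood test, with Benjamini-Hochberg adjustment over all 46949 features tested and a threshold of 0.01.

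Among the 9 tested genes, 6 passed between D20 and D30, where 41.8% of the 16253 annotated genes tested did so. Of these, 4 were higher at D30, against 25.1% of the annotated genes, and 2 were lower, against 16.7%. By single steps, none of the 9 passed between D20 and D22 (3.32% of the annotated genes), 3 passed between D22 and D25 (10.2%), and 1 passed between D25 and D30 (7.38%). In the joint test for any difference among the 4 timepoints 7 of 9 passed, beside 43.9% of the annotated genes. With so few genes these shares are a description. The share of higher genes among the annotated genes called depended on the fit. When the fit was normalized, run and adjusted on annotated genes alone, it went from 60.1% to 51.6% between D20 and D30 (3777 higher and 3545 lower), from 77.0% to 81.8% between D20 and D22, from 71.5% to 51.4% between D22 and D25, and from 61.6% to 50.1% between D25 and D30. With DESeq2's size factors and nothing else changed, these shares were 65.7%, 76.0%, 76.7% and 70.9%.

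As a setting for these values, the markers of 7 kinds of cells were summed in each MRO. All 8 rod markers rose from D20 to D30, with a summed level of 449.7 to 1364 CPM at D20 and 6130 to 12470 CPM at D30, and all 8 markers of retinal progenitors fell, from 1171 to 1849 CPM down to 310.3 to 496.1 CPM. Of 10 Müller glia markers 7 rose and 2 fell. Since whole MROs were lysed, fewer cells of a type and less RNA per cell cannot be told apart, and the part of these shifts in the changes below was not tested. Counted reads ranged from 13634846 to 19477108 per MRO, so that 3 counts corresponded to 0.154 to 0.22 CPM. MRO 6 of D30 lay farthest from the mean of its timepoint over all genes, at a root mean square log2 distance of 0.648 compared with 0.263 to 0.449 for the other 23. Without it 5 of the 9 genes passed between D20 and D30, the loss being *Prkci*.

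Sequences just upstream of the annotated starts are shown for 3 genes, because *Crb1* and *Crb2* moved in different ways between D25 and D30 and *Ocln* had the largest change. Each line holds the 250 bases before the start on the gene's strand, from RefSeq on build GRCm38.p6, written 5′ to 3′ with each CG pair in capitals. The *Crb1* stretch is chr1:139377077-139377326 on the minus strand, the *Crb2* stretch is chr2:37775999-37776248 on the plus strand, and the *Ocln* stretch is chr13:100552719-100552968 on the minus strand.
Crb1: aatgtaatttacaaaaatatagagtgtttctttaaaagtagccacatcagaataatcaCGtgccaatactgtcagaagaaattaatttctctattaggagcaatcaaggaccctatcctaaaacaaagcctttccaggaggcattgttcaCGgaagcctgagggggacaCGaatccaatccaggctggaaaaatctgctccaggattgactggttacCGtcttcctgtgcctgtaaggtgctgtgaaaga
Crb2: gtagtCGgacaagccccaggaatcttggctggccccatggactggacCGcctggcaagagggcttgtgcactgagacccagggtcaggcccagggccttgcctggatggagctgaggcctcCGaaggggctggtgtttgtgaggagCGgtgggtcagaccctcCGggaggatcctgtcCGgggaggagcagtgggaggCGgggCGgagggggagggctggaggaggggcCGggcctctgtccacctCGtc
Ocln: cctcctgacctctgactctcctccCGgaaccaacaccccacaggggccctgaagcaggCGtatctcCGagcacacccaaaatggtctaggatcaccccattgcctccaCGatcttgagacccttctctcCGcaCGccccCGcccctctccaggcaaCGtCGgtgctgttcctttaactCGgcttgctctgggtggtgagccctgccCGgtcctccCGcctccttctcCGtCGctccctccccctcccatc

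The *Crb1* stretch had a GC content of 41.6% with 4 CG pairs, compared with 68.8% and 10 CG pairs for *Crb2* and 64.0% and 14 CG pairs for the *Ocln* stretch shown. The stretch before another listed start of *Ocln* had 69.2% and 22 CG pairs. Over 32841 mouse promoter windows of this length the median GC content was 52.4% and the median number of CG pairs was 6. Only 14.9% of the windows had a lower GC content than that of *Crb1*, whereas 89.0% were lower than that of *Crb2*. The stretches before the first listed start of *Pard3* (79.2% GC, 34 CG pairs), *Pard6b* (77.6%, 43 CG pairs) and *Patj* (71.2%, 23 CG pairs) were richer still. A search of both strands for TAATCC, the core bound by the photoreceptor factor CRX, found no match in any of the 14 windows of 9 genes, and 6.25% of all windows hold it. The E-box CAGCTG, present in 13.0% of all windows, had no match either. GGAATG, a core recognised by TEAD factors and present in 12.6% of all windows, was found before *Prkci* and before 1 of the listed starts of *Crb3*. *Mpp5* had no entry. These are matches of letters and say nothing about binding.

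The Crumbs family was represented mainly by *Crb1* (ENSMUSG00000063681, chromosome 1, 139197056 to 139377100, minus strand of GRCm38), a protein of photoreceptors and Müller glia. Its level ran from 116.9 to 162.5 CPM at D20 with a median of 123.4, from 93.3 to 139.0 at D22 with a median of 107.4, from 105.6 to 133.5 at D25 with a median of 128.1, and from 125.8 to 212.6 at D30 with a median of 167.0. The first 3 timepoints overlapped throughout, and 5 of the 6 D30 MROs lay above every D25 MRO. Between D20 and D30 *Crb1* rose by a log2 fold change of 0.38 ± 0.11 (SE; edgeR adjusted p = 0.00701). The step from D25 to D30, at 0.44 ± 0.11, narrowly missed the threshold (edgeR adjusted p = 0.0103). The D20 to D30 call was fragile: it was lost in the fit of annotated genes alone (log2 fold change 0.30, edgeR adjusted p = 0.0398) and in a fit of D20 and D30 alone (edgeR adjusted p = 0.0176), and it was also lost when any of 8 single MROs was left out, the smallest change being 0.30 without MRO 3 of D30.

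*Crb2* (ENSMUSG00000035403, chromosome 2, 37776249 to 37799103, plus strand), the paralog that is also present in the developing retina, followed another course. At D20 it ranged from 19.5 to 28.8 CPM (median 21.6) and at D22 from 17.4 to 36.9 CPM (median 26.7). It reached 31.2 to 49.9 CPM at D25 (median 37.5) and was at 20.5 to 37.8 CPM at D30 (median 29.0). All D25 MROs lay above all D20 MROs, whereas D25 overlapped both D22 and D30. *Crb2* passed the joint test (edgeR adjusted p = 0.00276), but none of the 4 comparisons passed singly: the rise from D22 to D25 was 0.55 ± 0.17 on the log2 scale (edgeR adjusted p = 0.0290) and the change from D25 to D30 was -0.41 ± 0.17 (edgeR adjusted p = 0.165). The rise from D22 to D25 did pass when MRO 3 of D22 was left out (0.67, edgeR adjusted p = 0.00778).

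The 2 Crumbs genes could be compared within each MRO, where the scaling of the library has no part. The log2 ratio of *Crb1* to *Crb2* counts was 1.365 to 1.821 in the D25 MROs and 2.268 to 2.885 in the D30 MROs. The timepoints did not overlap, and the mean ratio was 0.86 higher at D30 on the log2 scale (two-sided exact permutation test over 924 splits, p = 0.00216, the smallest that this design allows, adjusted p = 0.00866 over 20 ratio comparisons). This call, like those of the *Prkci* to *Prkcz* ratio below, did not pass when medians were compared in place of means (0.68, exact permutation test, adjusted p = 0.0519). Several splits leave the medians of fully separated groups unchanged. Comparing medians therefore cannot reach the smallest p above even without overlap, and the lost call decides nothing. Scaled to exon length, *Crb1* stood at a median of 2.65 times the *Crb2* level at D20, 1.92 times at D22, 1.56 times at D25 and 2.51 times at D30. These multiples depended on the length used. Per kilobase of coding sequence the gap was wider, with means of 28.1 CPM for *Crb1* and 5.90 for *Crb2* at D20. At D30 these means were 36.55 and 7.57 CPM. The D30 and D20 ratios overlapped and differed by 0.03 (exact permutation test, adjusted p = 0.866).

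*Crb3* (ENSMUSG00000044279, chromosome 17, 57059105 to 57065918), the Crumbs gene found widely in epithelia, was almost absent. It had 0 to 4 counts per MRO at D20, summing to 5 over the 6 MROs, and 0 to 6 counts per MRO at D25, summing to 15. At D22, 5 MROs had 0 or 1 count, while MRO 6 had 20. At D30 every MRO had 5 to 16 counts, summing to 59, or 0.29 to 0.914 CPM. With a base mean of 4.05 counts it lay under the minimum of 10 and was not tested.

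*Mpp5* (ENSMUSG00000021112, chromosome 12, 78748907 to 78840714), the scaffold that links Crumbs to PATJ, was among the steadiest of the genes. Its medians were 95.3 CPM (D20), 100.0 (D22), 97.2 (D25) and 107.7 (D30), within a range of 82.7 to 119.5 CPM over all MROs, and all timepoints overlapped. Between D20 and D30 the log2 fold change was 0.13 with a 95% interval of -0.05 to 0.31 (edgeR adjusted p = 0.281), and the joint test did not pass (edgeR adjusted p = 0.233).

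*Patj* (ENSMUSG00000061859, chromosome 4, 98395785 to 98719603), whose product carries many PDZ domains and joins the complex to tight junctions, had the largest fitted change among the 4 tested Crumbs complex genes. It ranged from 7.75 to 13.6 CPM at D20 (median 8.57), from 9.62 to 16.4 CPM at D22 (median 13.1), from 19.4 to 32.1 CPM at D25 (median 27.2) and from 35.1 to 56.6 CPM at D30 (median 51.0). Every D25 MRO was above every D22 MRO, and every D30 MRO was above every D25 MRO. The step from D20 to D22 was 0.46 ± 0.17 on the log2 scale (edgeR adjusted p = 0.114). The next steps were 0.95 ± 0.16 (edgeR adjusted p = 0.000244) and 0.93 ± 0.16 (edgeR adjusted p = 0.00026), and the whole change from D20 to D30 was 2.34 ± 0.17 (edgeR adjusted p = 2.57e-12). No alternative setting and no left-out MRO removed any of these 3 calls.

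**Figure D1:**
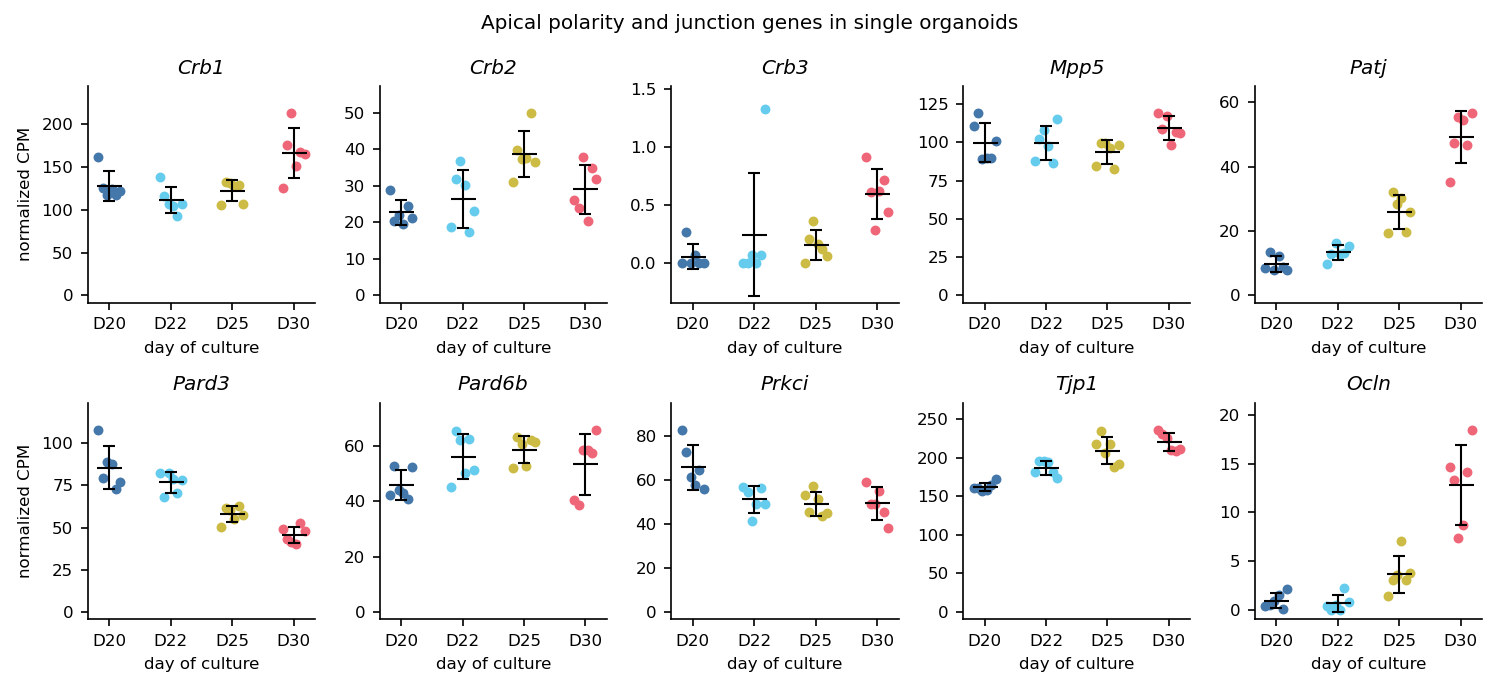
Normalized CPM (linear axis) of the 10 genes in single MROs by day of culture, with a point per MRO, the mean as a horizontal bar and the SD over 6 MROs as whiskers. *Patj* and *Ocln* climbed after D22 with D30 MROs above all D25 MROs, *Pard3* went down, *Crb2* was highest at D25, and *Mpp5* stayed between 82.7 and 119.5 CPM.

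Of the Par complex genes, *Pard3* (ENSMUSG00000025812, chromosome 8, 127063893 to 127612286) encodes the scaffold PAR3, which places the complex at junctions. It was at 72.6 to 108.0 CPM at D20 (median 83.4) and at 67.9 to 82.6 CPM at D22 (median 78.7). At D25 it was at 50.3 to 62.8 CPM (median 59.0) and at D30 at 40.1 to 52.6 CPM (median 45.6). D25 lay wholly below D22, and D30 lay wholly below D20. Between D20 and D30 *Pard3* fell by a log2 value of 0.90 ± 0.10 (edgeR adjusted p = 1.21e-08), a call that every alternative kept, and by 0.41 ± 0.10 from D22 to D25 (edgeR adjusted p = 0.00583). The D22 to D25 call was lost with edgeR's own expression filter (-0.38, edgeR adjusted p = 0.016), without any filter (-0.38, edgeR adjusted p = 0.0338), and when any of 7 single MROs was left out.

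*Prkci* (ENSMUSG00000037643, chromosome 3, 30995747 to 31052959) encodes atypical protein kinase C iota, the kinase of the complex. The D20 MROs ranged from 55.8 to 82.7 CPM (median 62.8), and the later timepoints from 41.1 to 56.8 (median 51.7), 43.5 to 57.1 (median 48.3) and 38.0 to 59.0 CPM (median 49.2). The timepoints overlapped in each comparison with D20. The log2 fold change from D20 to D30 was -0.42 ± 0.11 (edgeR adjusted p = 0.00434), of which -0.36 lay between D20 and D22 (edgeR adjusted p = 0.0596). The call was lost with DESeq2's test (-0.35, DESeq2 adjusted p = 0.0161), with its size factors, without a filter or in a fit of D20 and D30 alone (edgeR adjusted p = 0.0124 to 0.0186), and when MRO 1 or 2 of D20 or MRO 5 or 6 of D30 was left out, with values from -0.34 to -0.39.

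The related kinase gene *Prkcz* rose over the same days, from 4.54 to 12.5 CPM at D20 to 30.7 to 49.1 CPM at D30, and these ranges did not overlap. Its log2 fold change was 2.37 ± 0.22 (edgeR adjusted p = 7.51e-10). The log2 ratio of *Prkci* to *Prkcz* counts was 2.206 to 4.175 in the D20 MROs, 1.407 to 3.379 at D22, 0.314 to 1.188 at D25 and -0.075 to 0.666 at D30. Per exon length this was a median of 10.4 *Prkci* to 1 *Prkcz* at D20, with single MROs from 5.25 to 20.6. The median went to 5.77 by D22, to 1.8 by D25 and to 1.39 by D30, where single MROs ran from 1.08 to 1.81. These multiples, too, depend on the length used. The D25 ratios lay below all D22 ratios, by 1.63 on average, and the D30 ratios lay below all D20 ratios, by 2.84 (two-sided exact permutation test, adjusted p = 0.00866 for each). The last step, at -0.39, did not pass (exact permutation test, adjusted p = 0.0595).

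*Pard6b* (ENSMUSG00000044641, chromosome 2, 168081004 to 168101203), an adaptor between the kinase and PAR3, passed no comparison. It ranged from 40.8 to 52.9 CPM at D20, 45.3 to 65.5 at D22, 52.2 to 63.5 at D25 and 38.9 to 66 at D30, with medians of 43.7, 57.0, 61.0 and 58.1 CPM. At D30 the MROs fell into 2 with 38.9 and 40.7 CPM and 4 with 57.6 to 66 CPM. The D20 to D30 change was 0.22 with a 95% interval of -0.02 to 0.45 (edgeR adjusted p = 0.168). With all MROs included, the ratios of *Pard6b* to *Pard6a* and of *Pard3* to *Pard3b* passed in none of the 4 comparisons each. For *Pard3* to *Pard3b* the ratio was 0.39 higher at D30 than at D20 (exact permutation test, adjusted p = 0.0595), and both genes were lower at D30.

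The junction genes rose. *Tjp1* (ENSMUSG00000030516, chromosome 7, 65296165 to 65527781, minus strand) encodes ZO-1, which links junction proteins to actin and lies at the outer limiting membrane. Its level was 156.5 to 171.8 CPM at D20 (median 160.9), 173.5 to 195.7 at D22 (median 187.6), 187.7 to 234.9 at D25 (median 211.4) and 208.8 to 235.5 at D30 (median 218.2). D20 lay wholly below each later timepoint, though the change by D22, 0.20 ± 0.07 on the log2 scale, did not pass (edgeR adjusted p = 0.0881). From D20 to D30 *Tjp1* rose by 0.44 ± 0.07 (edgeR adjusted p = 6.44e-06), and this call held in all alternatives and left-out MROs.

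*Ocln* (ENSMUSG00000021638, chromosome 13, 100496507 to 100552718, minus strand) was near the detection floor at first. At D20 the 6 MROs had 0.42, 0.537, 0.894, 1.58, 0.142 and 2.18 CPM, and at D22 they had 0.368, 0, 0.54, 0, 2.3 and 0.798 CPM. At D25 the values were 1.39, 3.07, 3.6, 7.08, 3.03 and 3.78 CPM, and at D30 they were 14.7, 13.3, 7.41, 8.74, 14.1 and 18.5 CPM. Each D30 MRO was above each earlier MRO, while D25 still overlapped D22 through single MROs. The log2 fold change was 2.46 ± 0.57 from D22 to D25 (edgeR adjusted p = 0.00429), 1.80 ± 0.49 from D25 to D30 (edgeR adjusted p = 0.0209) and 3.71 ± 0.56 from D20 to D30 (edgeR adjusted p = 3.02e-06). The D22 to D25 call was lost in a fit of these timepoints alone (edgeR adjusted p = 0.0132) and without MRO 1 or 4 of D22 or MRO 4 of D25, at values of 2.15 to 2.33.

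Because occludin is a protein of many epithelia, markers of other tissues were set beside it. Of 8 markers of non-neural epithelium none passed from D20 to D30, only 4 had enough reads to be tested, and the summed level was 30.94 to 90.97 CPM at D20 and 14.67 to 53.6 CPM at D30. At D30 the medians of *Krt18*, *Epcam*, *Cldn7*, *Krt19*, *Krt8*, *Esrp1*, *Cldn6* and *Cldn4* were 26.5, 1.61, 0.705, 0.677, 0.418, 0.118, 0.0286 and 0 CPM. *Krt8*, which was not tested, reached up to 7.43 CPM at D30 and up to 0.769 CPM at D20. Of the 5 mesenchyme markers 4 rose, with a summed level of 7.704 to 25.53 CPM at D20 and 45.79 to 236.2 CPM at D30. On average *Pdgfra* was the largest part of this sum, with means of 10.08 CPM at D20 and 85.9 CPM at D30. *Col3a1* averaged 33.6 CPM at D30, with single MROs from 2.772 to 107.2 CPM. *Dcn*, *Col1a1* and *Lum* averaged 13.96, 6.913 and 3.188 CPM at D30, and *Lum* did not pass (edgeR adjusted p = 0.0118). Among 9 pigment epithelium markers *Mitf* and *Ttr* rose and *Dct* fell. *Tyrp1* (3.14 CPM on average at D20, 13.9 at D30, edgeR adjusted p = 0.0320), *Pmel* (2.48 and 7.25 CPM) and *Tyr* (3.21 and 6.43 CPM) did not pass, and *Rpe65*, *Best1* and *Mlana* had D30 medians of 0.116, 0.115 and 0.0616 CPM. *Ttr*, which choroid plexus and pigment epithelium share, was uneven at D30: the MROs 1 to 6 had 255, 2630, 96.3, 19.9, 462 and 2460 CPM. Of the 5 endothelial markers only *Pecam1* and *Kdr* could be tested. *Pecam1* rose from 0.167 CPM on average at D20 to 1.37 CPM at D30. *Kdr* fell from 280.1 to 168.6 CPM, a level far above that of the other endothelial markers. *Cdh5*, *Tek* and *Emcn* had D30 medians of 0.0306, 0.2365 and 0 CPM. The part of any of these cells in the rise of *Ocln* was not tested.

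**Figure D2:**
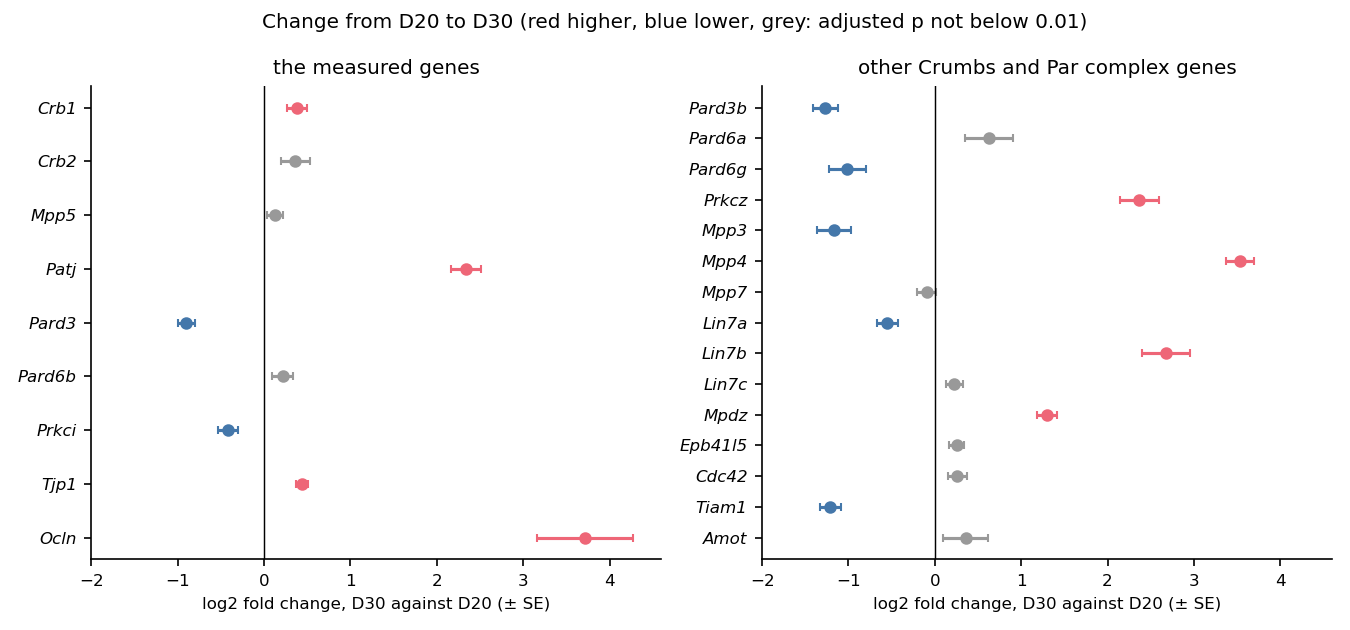
Fitted log2 fold change from D20 to D30 with its SE for the 9 tested genes (left) and for 15 other genes of the Crumbs and Par complexes and their partners (right), coloured by edgeR's call at an adjusted p of 0.01. *Ocln* (3.71) and *Patj* (2.34) lie far to the right on the left side, and on the right side 4 genes were higher and 5 lower.

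The levels of the genes can be set in order only per length. Taking normalized CPM per kilobase of exon, *Tjp1* was highest at every timepoint (28.2 ± 1.47 at D30, SD, n = 6) and overlapped no other gene. At D30 it was followed by *Pard6b* (15.7 ± 3.23), *Mpp5* (12.4 ± 0.89), *Crb1* (11.5 ± 1.99) and *Prkci* (8.87 ± 1.32), and each of these overlapped its neighbour. A gap then separated *Crb2* (4.35 ± 1.00), *Patj* (3.77 ± 0.62), *Pard3* (3.15 ± 0.34) and *Ocln* (3.03 ± 0.97), which again overlapped each other in order, from *Crb3* (0.383 ± 0.138). At D20 the lower end was drawn out: *Pard3* stood at 5.90 ± 0.87, *Crb2* at 3.39 ± 0.51, *Patj* at 0.744 ± 0.19, and *Ocln* at 0.227 ± 0.184 CPM per kilobase, with no overlap between *Pard3*, *Crb2*, *Patj* and *Ocln*. The order depended on the length used, since at D30 *Mpp5* (53.5 CPM per kilobase of coding sequence) and *Pard6b* (48.0) came before *Tjp1* (39.9) when coding length was taken.

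**Figure D3:**
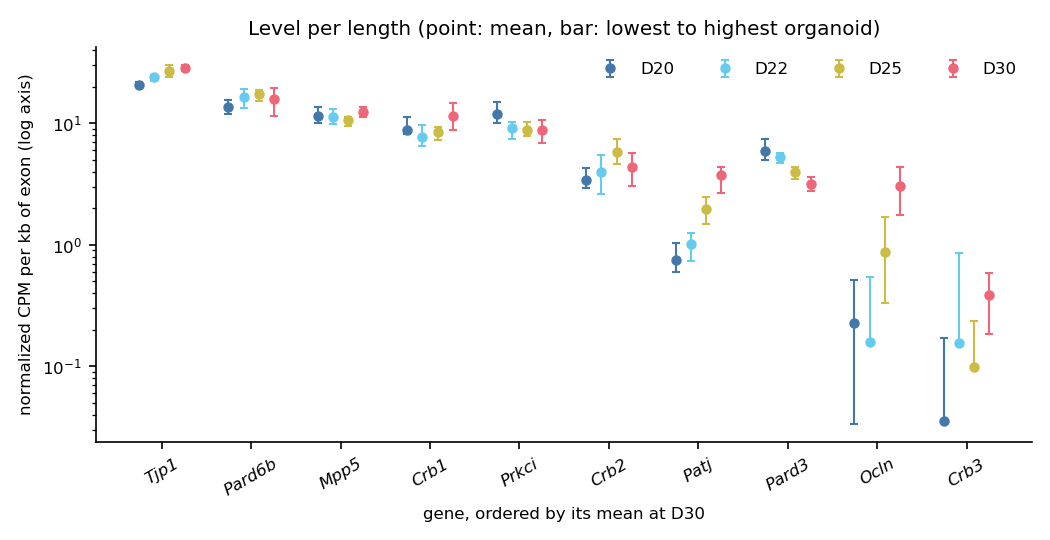
Normalized CPM per kilobase of exon (log axis) for the 10 genes ordered by their D30 mean, with a point for the mean of 6 MROs and a bar from the lowest to the highest MRO (no lower bar where the lowest was 0). *Tjp1* is highest at every timepoint and *Crb3* has the lowest mean at every timepoint, while by D30 the mean of *Patj* is above and that of *Ocln* just below that of *Pard3*.

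**Figure D4:**
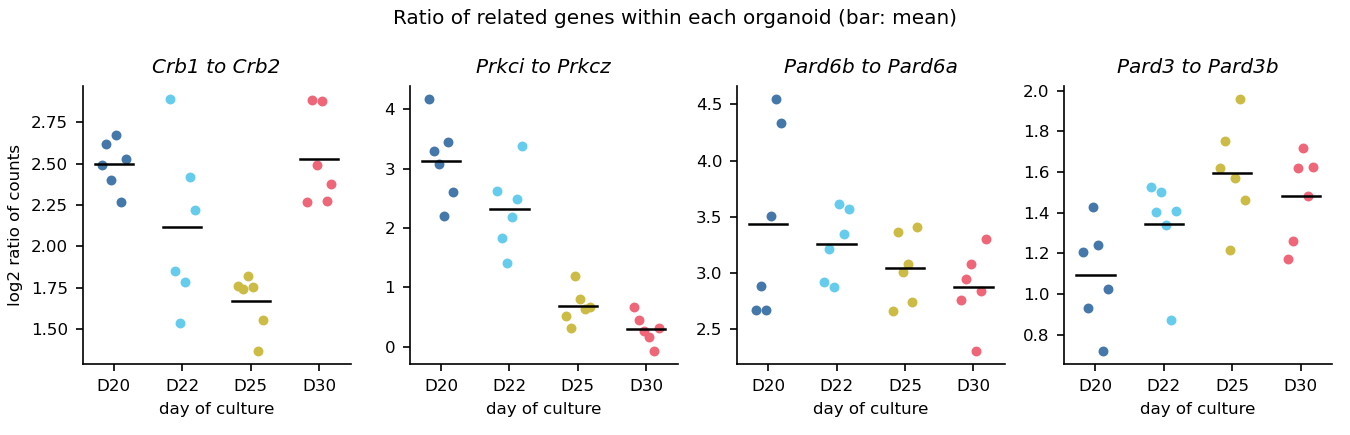
Log2 ratio of counts of related genes within each MRO by day of culture, with a point per MRO and a bar for the mean (each panel has its own axis). *Prkci* to *Prkcz* goes down to near 0 at D30, and *Crb1* to *Crb2* is lowest at D25.

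Among 15 further genes of the apical complexes and their partners, all tested, 4 were higher and 5 lower at D30 than at D20, with a median log2 fold change of 0.25 beside 0.10 for all annotated genes. Of all annotated genes tested, 25.1% were higher and 16.7% lower, a background that applies to each list below as well. The largest rises were those of *Mpp4*, a photoreceptor relative of *Mpp5* (34.8 to 403 CPM on average, log2 fold change 3.53), *Lin7b* (2.68), and *Prkcz*. *Pard3b*, a relative of *Pard3* (40.1 to 16.6 CPM, -1.27), *Tiam1*, an activator of the GTPase Rac (-1.21), and *Mpp3* (-1.17) fell most. Each of these 6 had D20 and D30 MROs that did not overlap. Genes named here and for the lists below were mostly picked for large changes. The share of all genes without such overlap is not given, so its absence only describes them. *Mpdz*, which is built like *Patj*, also rose (1.3). Within some groups of paralogs directions differed: *Mpp4* rose and *Mpp3* fell, and *Lin7b* rose while *Lin7a* fell (-0.55). In the same groups *Mpp7* (-0.10) and *Lin7c* (0.22) were not called. Other related genes moved the same way, with *Pard3* and *Pard3b* both lower and *Patj* and *Mpdz* both higher.

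Of 7 basolateral genes, which oppose the apical complexes, 3 passed, beside 41.8% of all annotated genes tested. *Llgl2* (1.97) and *Dlg1* (0.96) were higher and *Llgl1* lower (-0.59), and the median was 0.01. Of 13 tested adherens junction genes 3 were higher and 3 lower, with a median of 0.05. *Vcl*, which encodes the actin linker vinculin (1.12), *Ctnna2* (0.90) and *Ctnnd2* (0.71) rose, and *Nectin2* (-0.77), *Plekha7* (-0.63) and *Afdn* (-0.37) fell. The core genes of the retinal adherens junction were called in neither direction: *Cdh2* had -0.17 and *Ctnnb1* 0.05.

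Tight junction genes other than *Tjp1* and *Ocln* were also split, with 4 higher and 4 lower among 12 tested and a median of 0.05. *Cgnl1*, encoding paracingulin (2.51 to 24 CPM on average, log2 fold change 3.25), *Marveld3*, a relative of *Ocln* (0.876 to 7.57 CPM, 3.10), and *Cldn1* (0.662 to 4.59 CPM, 2.79) rose with no overlap between D20 and D30. *Cgn*, which encodes cingulin and is related to *Cgnl1*, fell from 65.2 to 17.5 CPM (-1.90), *Tjp3* fell from 4.03 to 1.43 CPM (-1.49), and *Cldn5* fell from 2.82 CPM to 0.0379 CPM, near the floor. Of 11 genes of the apical actin cortex 4 were higher and 4 lower, with a median of 0.42. *Podxl*, encoding the apical surface protein podocalyxin (1.83), rose most, followed among the called genes by *Rock2* (0.72) and *Shroom3* (0.69), and *Msn* (-0.66), *Myh10* (-0.52) and *Rdx* (-0.52) fell. *Slc9a3r1*, which passed the joint test, had 0.85 without a call. These calls are edgeR's at an adjusted p of 0.01.

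The genes whose time courses lay nearest were sought among 10846 annotated genes that averaged 100 or more normalized counts, by the root mean square distance of the fitted log2 changes from D20. For *Crb1* they were *Tmed3*, *Asap2* and *Anxa4* (distances 0.0299 to 0.0339), and for *Crb2* they were *Atp5k-ps2*, *Crtc3* and *Dscam* (0.0196 to 0.0546). *Patj* lay nearest to *Fam78b*, *Sh3gl2* and *Nsf* (0.0519 to 0.0625). *Pard3* lay nearest to *Qsox1*, *Chd1* and *Gm33366* (0.0217 to 0.0297), and *Prkci* to *Rad50*, *Zc3h10* and *Utp15* (0.00889 to 0.019). For *Tjp1* the nearest were *Zscan26*, *Kpna6* and *Pggt1b* (0.00876 to 0.0192). *Ocln* had no gene as close, the nearest being *Islr*, *Slco1c1* and *Ncan* at 0.118 to 0.158. *Ocln* itself averaged 69.8 normalized counts, below the limit set for the other genes, and its single steps had SEs of 0.49 to 0.61. The part of this in its larger distances was not tested. Each course here consists of 3 values that share the D20 MROs, and the distances are a description.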

How the data were processed

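The authors trimmed reads with cutadapt 1.5, aligned them with hisat2 to GRCm38/mm10, assembled new transcripts with StringTie 1.3.3, and ran htseq-count 0.6.1 on known genes and new transcripts alike. The deposited values are raw counts for 126602 features, of which 46603 have an Ensembl identifier. Whether counting used the strand is not given in the sources used here. At most 1.69% of the exon length of a described gene was shared with another gene (*Crb2* with *Dennd1a*, opposite strand).

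Samples were grouped by the labels. The described genes and lists were chosen with earlier results of these data known. In place of the DESeq2 test that the authors used, edgeR 4.0.16 (R 4.3.3) was run with TMM factors and the quasi-likelihood test on all 24 MROs in 1 fit, over features whose base mean reached 10 (46949 features, 16253 of them annotated). The common biological coefficient of variation was 0.385. Standard errors are those of the fit, and 95% intervals are the change ± 1.96 SE. Ratios of counts with 0.5 added were compared by two-sided exact permutation tests, adjusted over 20 comparisons with a threshold of 0.05, of which 4 comparisons, those of 1 ratio, are not reported here. Lengths and positions are from GENCODE's annotation of GRCm38. Alternatives were DESeq2 1.42.0, its size factors in edgeR, 3 other gene filters, a replicate block, fits of 2 timepoints, leaving out each MRO, and other settings of the ratios. The fit was tested on simulated data. Counting floors cover counting error only, since reads carried no molecular identifiers. Of all replicate pairs within a timepoint none differed by less than sampling noise.

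Genes named were all 10, then per list those past the joint test with the largest rises and falls from D20 to D30, up to 3 each way, the 3 nearest time courses per gene, and for marker lists the counts and summed levels. *Mpdz*, *Lin7a*, *Lin7c*, *Mpp7*, *Cdh2*, *Ctnnb1*, *Rock2*, *Shroom3* and the single markers were named after their values were seen.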

Additional observations from a re-analysis of the deposited data

Results flagged for a closer look

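Values were searched in 40 groups, those of the 10 genes at 4 timepoints, for a single MRO whose gap to the nearest other exceeded Dixon's 95% critical share of the range for 6 values. There were 4 such MROs. Chance gives about 1 in 20 groups if the values are normally distributed. Counts near 0, as in the *Crb3* and *Ocln* groups named here, are not, so this rate is no measure for them. *Crb1* was at 162 CPM in MRO 1 of D20, where the other 5 lay between 117 and 125 CPM. *Crb3* was at 0.269 CPM in MRO 2 of D20 and at 1.33 CPM in MRO 6 of D22, the latter with 20 counts where the other 5 MROs of D22 had 0 or 1. *Ocln* was at 2.3 CPM in MRO 5 of D22, where the others lay at 0.798 CPM or below.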

How the results depend on the processing

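Of 252 values of the 9 tested genes under the 7 alternative fits 228 kept their direction and their side of the threshold. Between D25 and D30 the number of genes passing was 1, and it was 2 with DESeq2's test or size factors (*Crb1* added), without a filter or in a fit of these timepoints alone (*Ocln* added) and with annotated genes only (*Pard3* added). Changes near 0 reversed: *Mpp5* from D20 to D22 was 0.0019 without a filter and 0.0471 with annotated genes only, *Pard6b* from D22 to D25 was -0.0222 with annotated genes only, and *Prkci* from D25 to D30 was -0.0155 without a filter, -0.0134 with edgeR's own filter, -0.0513 with annotated genes only and -0.0065 in a fit of these timepoints alone. The cause of these changes was not tested.

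The replicate numbers name different MROs and do not pair them: same-numbered MROs had correlations of deviations from -0.206 to 0.365 with a median of -0.016. With the replicate block, *Prkci* from D25 to D30 was -0.0069, and the calls of *Crb1* from D20 to D30 (0.38, edgeR adjusted p = 0.0113) and of *Pard3* from D22 to D25 (-0.40, edgeR adjusted p = 0.0113) were lost, with no other call of these genes changed.

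When single MROs were left out, the number of genes passing ranged from 1 to 3 both between D22 and D25 and between D25 and D30, from 4 to 6 between D20 and D30, *Mpp5* from D20 to D22 from -0.0488 to 0.0548, and *Prkci* from D25 to D30 from -0.0371 to 0.0685. Without MRO 1 or 4 of D22 or MRO 4 of D25, 1 gene (*Patj*) passed from D22 to D25. Without MRO 3 of D22, *Crb2* was added and *Pard3* was lost in this step. From D25 to D30, *Crb1* was added without MRO 1 of D20, D22 or D30, and *Crb1* and *Ocln* without MRO 5 of D22. The ratio of *Crb1* to *Crb2* then ranged from -0.5334 to -0.2624 (D22 less D20), from -0.5665 to -0.2955 (D25 less D22) and from -0.0383 to 0.0851 (D30 less D20). *Prkci* to *Prkcz* ranged from -0.47 to -0.2951 (D30 less D25), *Pard6b* to *Pard6a* from -0.3346 to 0.0423 (D22 less D20), and *Pard3* to *Pard3b* from 0.1607 to 0.3311 (D25 less D22) and from 0.3143 to 0.4565 (D30 less D20). In 8 of 192 such cases a ratio difference that had not passed did so. These were *Crb1* to *Crb2* (D22 less D20 in 1, D25 less D22 in 1), *Prkci* to *Prkcz* (D30 less D25 in 2) and *Pard3* to *Pard3b* (D25 less D22 in 1, D30 less D20 in 3).

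With medians in place of means, the 3 ratio differences given as passed lost the call, each at an exact permutation adjusted p of 0.0519: *Crb1* to *Crb2* 0.6848 (D30 less D25) and *Prkci* to *Prkcz* -1.676 (D25 less D22) and -2.896 (D30 less D20). Several splits share the same medians, so medians cannot reach as small a p as means, and these losses decide nothing. *Crb1* to *Crb2* reversed to -0.0757 (D30 less D20) and *Pard6b* to *Pard6a* to 0.081 (D22 less D20). Over annotated genes, the 540 calls between D20 and D22 became 873 with DESeq2, 300 without MRO 1 of D20, 341 or 256 without MRO 2 or 3 of D22 and 824 without MRO 6 of D22, and the 1665 calls between D22 and D25 became 1064 without MRO 1 of D22. Depth limited *Crb3* and the early *Ocln* values, where 3 counts are at most 0.22 CPM.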
